A study of Mus musculus with 4 samples.

Results

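The genes described here drive cell division: cyclins and their kinases, the replication machinery, the enzymes that supply deoxynucleotides, and the proteins of the mitotic spindle and its checkpoint. A list of 46 such genes was matched by exact symbol to the annotation of the array, and 58 of the 12488 probe sets matched, covering 41 genes. Cdk6, Cdc25b, Ccnb1 and Bub1b had no probe set with that single symbol, and Tyms was annotated only together with a pseudogene, so these 5 genes were not analysed here. The 41 genes were divided by their textbook role into 11 of G1 control and transcription, 16 of S phase and 14 of G2 and mitosis, called the mitosis class below.

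RNA came from the adherent peritoneal cells of female BALB/c mice aged 6 to 8 weeks, drawn into the cavity by 2 ml of 3% thioglycolate and harvested on day 4. The cells, labelled as over 95% positive for the macrophage marker F4/80, were cultured overnight without serum, either with porcine TGFb2 (5 ng, with no volume given) or with PBS, the vehicle. Each condition had 2 arrays (TGFb2 replicates 1 and 2, PBS replicates 1 and 2), and the labels do not say whether they came from separate cultures or mice, and the p-values below carry no more than the array-to-array spread, which may be technical. In bulk RNA, fewer cells of a type and less RNA per cell cannot be told apart.

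Cells commit to division in G1, when D and E cyclins with Cdk4, Cdk6 and Cdk2 phosphorylate the retinoblastoma protein and free E2F factors to transcribe replication genes. Helicase subunits of the Mcm family are loaded on origins, DNA is copied with the sliding clamp Pcna, and mitotic kinases and cyclins are then transcribed in G2. TGF-beta is known as a cytostatic cytokine of epithelial cells, where it lowers Myc and raises inhibitors of cyclin-dependent kinases, and thioglycolate-elicited macrophages are known as cells that divide little without added growth factor.

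The macrophage marker genes Adgre1, which encodes F4/80, and Csf1r, the receptor for the macrophage growth factor, were measured on every array, at 471 and 748 against 488 and 779.9 for Adgre1 and at 1359.9 and 2071 against 1037 and 1257 for Csf1r (MAS5 signals on the TGFb2 arrays against the PBS arrays). Median signals of the arrays lay between 40.1 and 45.6. Over all probe sets tested, 88 of 7453 passed an adjusted p of 0.05 in limma, 61 higher and 27 lower with TGFb2. Leaving out 1 array gave 11 without TGFb2 replicate 1, 25 without TGFb2 replicate 2, 42 without PBS replicate 1 and 34 without PBS replicate 2. The test was run on log2(signal + 15) for probe sets whose mean level on that scale reached the 40th percentile, a signal of about 24, and probe sets below it are called dim. Differences given below are on that scale, TGFb2 minus PBS, and understate the change of genes near the pseudocount.

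None of the cell cycle and replication genes passed the test in either direction, although Pcna passed in an alternative fit given below. Of the 41 genes on the array, 32 reached the level filter with at least 1 probe set, and their 37 tested probe sets gave 0 calls in limma, where 1.18% of all tested probe sets were called (0.818% higher and 0.362% lower). At an unadjusted p under 0.05 there were 4 member probe sets, all lower with TGFb2 (Pcna, Ccna2, Rb1 and 1 of 2 probe sets of Ccnd1), while 11.6% of all tested probe sets were that low, 5.77% higher and 5.86% lower. The signals of the 2 groups did not overlap for 15 of the 37 probe sets, 6 higher and 9 lower with TGFb2, or 40.5%, against 42.8% of all tested probe sets (21.1% higher and 21.7% lower). For 28 of the 37, the 95% interval of the difference lay within 1 unit on either side of 0 on the log2(signal + 15) scale, as it did for 82.8% of all tested probe sets. A 2-fold change of a low signal is less than 1 unit on that scale, so such an interval can still hold one. Arrays were also simulated with these mean levels and with variances drawn from the fitted prior. There the fit found 37.4% of changes of 1 unit on that scale and 95.3% of changes of 2 units. A 1-unit change of a single gene could therefore go uncalled with 2 arrays a group. So could a 2-fold change of a low signal, which is smaller on that scale.

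**Figure D1:**
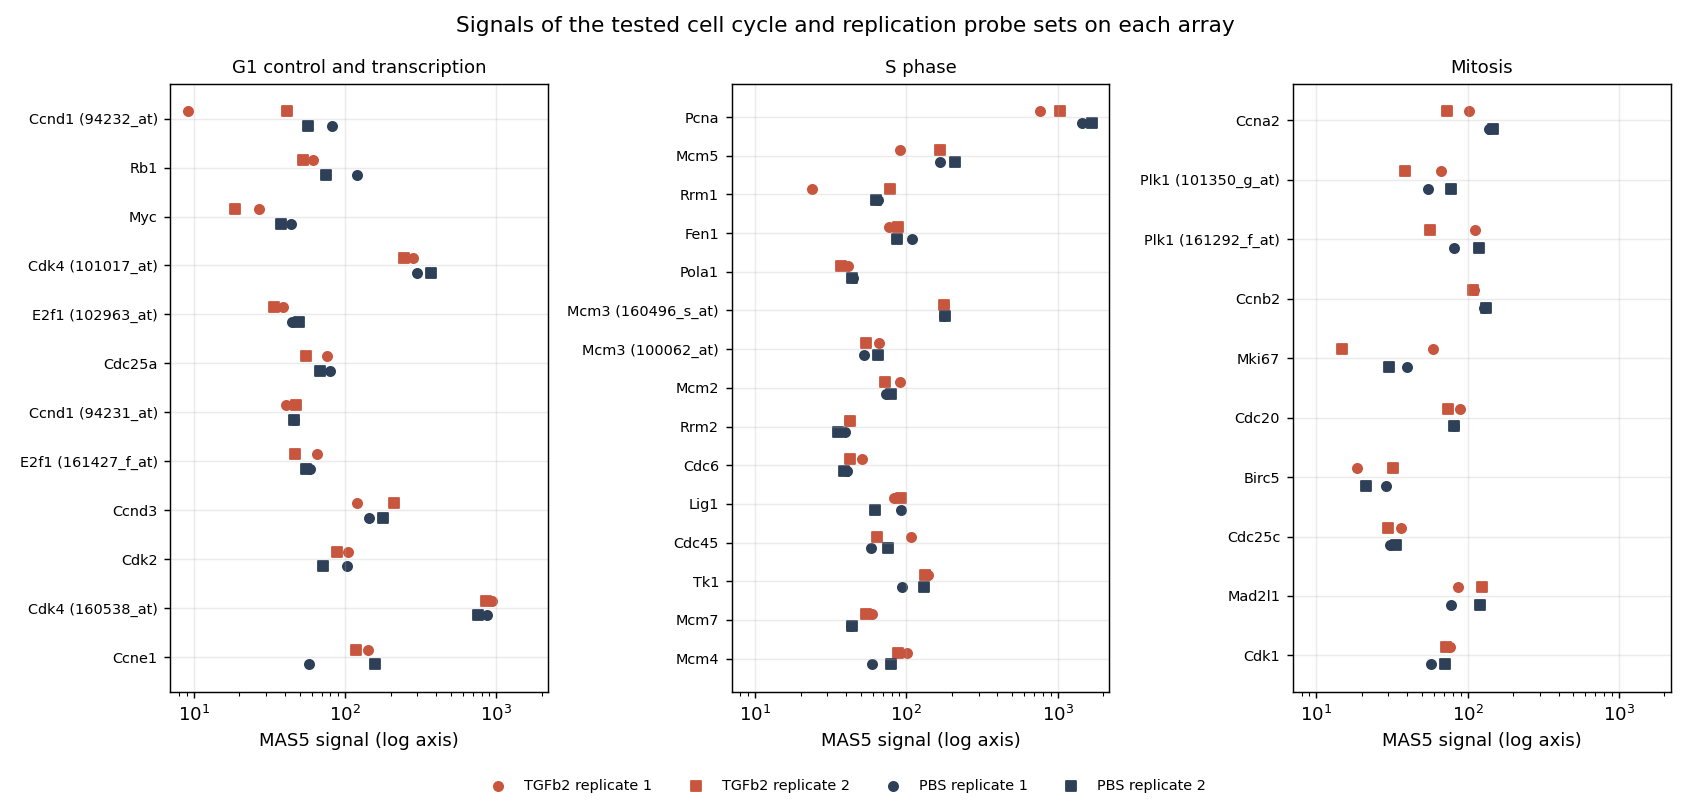
MAS5 signal (log axis) of the 37 tested probe sets on each array, TGFb2 in red above PBS in blue, with circles for replicate 1 and squares for replicate 2, ordered within each class from the lowest to the highest log2 difference. Pcna lies between 769 and 1035 on the TGFb2 arrays, below 1442 and 1689.7 on the PBS arrays, while the symbols of most other genes interleave.

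In the G1 class, 9 of 11 genes were tested, 0 rose and 0 fell, and the median difference over 1 probe set per gene was -0.04, against -0.00082 over all tested probe sets. Cyclin D1 (Ccnd1), the growth factor-induced partner of Cdk4 and Cdk6, was read by a pair of tested probe sets that disagreed. One had signals of 9.1 and 41.0 on the TGFb2 arrays, against 81.9 and 57.1 on the PBS arrays, a difference of -1.19 ± 0.40 (SE, limma adjusted p = 0.29). The other, with the higher mean log2 value, had 40.5 and 47.6 with TGFb2, against 45.6 on each PBS array. Its difference was -0.04 ± 0.22 (limma adjusted p = 0.97). The lower value of the first therefore did not appear in the second, and TGFb2 replicate 1 alone set much of its size, since without that array the difference was -0.58.

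Rb1, the retinoblastoma protein that holds E2F factors inactive, had signals of 61.8 and 52.4 with TGFb2, against 119 and 75.0 with PBS, a difference of -0.61 ± 0.25 (SE, limma adjusted p = 0.39). Its groups did not overlap, although the PBS arrays differed from each other by more than the gap between the closest arrays of the groups, and without PBS replicate 1 the difference was -0.32. Myc, a transcription factor of growth and proliferation, had 27.0 and 18.6 with TGFb2, against 43.9 and 37.7 with PBS, so both TGFb2 arrays were lower (limma adjusted p = 0.47, 95% interval -1.19 to 0.05). E2f1, the founding member of the E2F family, had 38.7 and 33.7 with TGFb2 against 44.9 and 49.6 with PBS in one probe set, and 64.8 and 46.6 against 58.5 and 55.4 in another, where the groups overlapped.

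Cyclin-dependent kinase 4 (Cdk4) was the G1 gene with the highest signal of a tested probe set, at 937 and 857 with TGFb2 against 872 and 760.0 with PBS, a difference of 0.14 ± 0.15 (SE, limma adjusted p = 0.78) that was 0.04 without PBS replicate 2. A second probe set of Cdk4 had the opposite sign, with 280.3 and 243 on the TGFb2 arrays against 299.9 and 367 on the PBS arrays (-0.33 ± 0.18, limma adjusted p = 0.55). Neither reading of Cdk4 passed, and their 95% intervals, -0.21 to 0.48 and -0.75 to 0.09, overlap. Cyclin E1 (Ccne1), the partner of Cdk2 at the entry to S phase, had 142 and 118 with TGFb2 against 58.1 and 159 with PBS, the largest positive difference of the class at 0.36 ± 0.37 (SE, limma adjusted p = 0.77). Its TGFb2 signals lay between those of the 2 PBS arrays, which were the farthest apart.

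The remaining tested G1 genes overlapped between groups. Cdk2, the kinase of cyclins E and A, had 103.8 and 87.9 with TGFb2 against 103 and 71.1 with PBS. Cyclin D3 (Ccnd3) had 120.3 and 209 against 144 and 179, and Cdc25a, the phosphatase that activates Cdk2, had 76.0 and 54.8 against 79.0 and 67.8. Cyclins D2 (Ccnd2) and E2 (Ccne2) were dim on all arrays, at 5.0 and 6.4 with TGFb2 against 5.7 and 4.9 with PBS for Ccnd2 and at 4.5 and 5.0 against 1.5 and 7.2 for Ccne2, and were not tested.

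In the S phase class, 14 of 16 genes were tested, 0 rose and 0 fell, and the median difference was 0.10 with 8 positive and 6 negative values. Pcna, the sliding clamp that holds polymerases on DNA, had the smallest p of all members. Its signals were 769 and 1035 on the TGFb2 arrays, against 1442 and 1689.7 on the PBS arrays. Both TGFb2 arrays were below both PBS arrays, and the difference was -0.80 ± 0.18 (SE, 95% interval -1.21 to -0.38), with an adjusted p of 0.11 in limma, rank 170 of 7453 by p. With the replicate number as a block Pcna passed (limma adjusted p = 0.0041), but the labels do not say whether the numbers pair the arrays. Mcm5, a subunit of the replicative helicase, had 91.1 and 166.6 with TGFb2 against 166.2 and 211 with PBS, a difference of -0.54 ± 0.27 (SE, limma adjusted p = 0.51), and TGFb2 replicate 2 overlapped PBS replicate 1 by less than 1 signal unit.

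Without TGFb2 replicate 1 the difference of Mcm5 was -0.16, and without TGFb2 replicate 2 it was -0.93.

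The tested subunits of that helicase had no common sign, with Mcm5 and 1 probe set of Mcm3 negative and the others positive. Mcm4 had 100.3 and 87.7 with TGFb2 against 58.9 and 78.9 with PBS, the largest positive difference of the class at 0.39 ± 0.21 (SE, limma adjusted p = 0.55), which was 0.21 without PBS replicate 1. Mcm7 had 59.3 and 54.3 with TGFb2 against 43.0 and 43.7 with PBS (0.30 ± 0.21, limma adjusted p = 0.66), so for both genes the TGFb2 arrays were above the PBS arrays without passing the test. Mcm3 was close to level in each of its probe sets, with 177.6 and 178 against 176 and 181 in one (difference -0.0048) and 65.7 and 54.4 against 52.8 and 65.2 in the other (0.02). Mcm2 had 90.8 and 71.8 with TGFb2 against 73.5 and 79.3 with PBS. Mcm6 was dim, at 2.8 and 3.5 with TGFb2 against 11.4 and 1.7 with PBS.

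Among the initiation factors, Cdc6, which loads the helicase, had 51.3 and 42.3 with TGFb2 against 40.4 and 39.0 with PBS, and Cdc45, which activates it, had 107.8 and 63.7 against 58.6 and 75.4. Genes of primer and strand synthesis were near level or dim. The polymerase alpha subunit Pola1 had 41.4 and 36.8 with TGFb2 against 44.4 and 43.8 with PBS, and the primase subunit Prim1 was dim at 11 and 0.8 against 22.3 and 8.9. Lig1, the ligase that joins Okazaki fragments, had 83.5 and 92.3 against 92.7 and 62.1, and Fen1, the nuclease that trims them, had 77.3 and 88.0 against 108.7 and 86.3.

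The enzymes that make deoxynucleotides gave no common direction either. Thymidine kinase 1 (Tk1), which salvages thymidine, had 140.0 and 133.5 with TGFb2 against 94.3 and 129.9 with PBS. The ribonucleotide reductase subunits split, with Rrm2 at 41.8 and 42.4 against 39.6 and 35.4 and Rrm1 at 23.8 and 78.4 against 64.5 and 62.6. Rrm1 was lowest on TGFb2 replicate 1 and highest on TGFb2 replicate 2, and its difference was 0.25 without TGFb2 replicate 1 and -1.02 without TGFb2 replicate 2.

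Promoter windows are shown for an S phase gene with lower signals (Pcna), for helicase subunits of opposite sign (Mcm5 and Mcm7) and for mitotic genes of opposite sign (Ccnb2 and Cdk1), so that the letters they share can be set beside their values. Each runs from 250 bases before to 50 bases after the start of the gene in RefSeq (GRCm38.p6), 5′ to 3′ on the strand of the gene, and the sequences are chr2:132253131-132253430 (minus strand), chr8:75109259-75109558 (plus strand), chr5:138171834-138172133 (minus strand), chr9:70421505-70421804 (minus strand) and chr10:69352863-69353162 (minus strand), in that order. Capitals mark the CCAAT box letters in Pcna, the E2F letters in Mcm5 and Mcm7, and the CHR letters (cell cycle genes homology region) in Ccnb2 and Cdk1. The windows of Mcm5, Mcm7, Ccnb2 and Cdk1 also hold CCAAT letters, which are not marked as such.
Pcna: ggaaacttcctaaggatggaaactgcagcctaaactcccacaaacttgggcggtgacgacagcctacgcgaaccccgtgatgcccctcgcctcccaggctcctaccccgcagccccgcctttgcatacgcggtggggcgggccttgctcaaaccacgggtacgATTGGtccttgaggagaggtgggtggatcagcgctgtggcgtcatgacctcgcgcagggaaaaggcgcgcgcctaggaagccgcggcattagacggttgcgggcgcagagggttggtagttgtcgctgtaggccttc
Mcm5: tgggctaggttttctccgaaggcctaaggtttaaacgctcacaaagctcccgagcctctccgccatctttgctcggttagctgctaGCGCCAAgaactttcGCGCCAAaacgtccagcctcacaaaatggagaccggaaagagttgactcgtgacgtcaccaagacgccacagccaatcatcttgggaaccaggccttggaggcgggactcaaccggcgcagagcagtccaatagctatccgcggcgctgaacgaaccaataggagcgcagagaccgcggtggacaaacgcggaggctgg
Mcm7: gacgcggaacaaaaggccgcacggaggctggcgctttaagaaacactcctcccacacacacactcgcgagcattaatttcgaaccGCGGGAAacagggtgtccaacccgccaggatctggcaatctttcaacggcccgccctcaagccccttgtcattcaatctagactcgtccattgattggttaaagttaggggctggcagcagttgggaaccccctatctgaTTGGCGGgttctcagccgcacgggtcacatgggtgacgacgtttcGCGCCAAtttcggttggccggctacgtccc
Ccnb2: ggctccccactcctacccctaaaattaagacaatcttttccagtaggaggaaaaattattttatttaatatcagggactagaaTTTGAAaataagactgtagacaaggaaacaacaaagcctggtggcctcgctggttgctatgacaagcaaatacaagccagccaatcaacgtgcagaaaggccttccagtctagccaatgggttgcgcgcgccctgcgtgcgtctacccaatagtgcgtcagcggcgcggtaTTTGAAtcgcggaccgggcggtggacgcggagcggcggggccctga
Cdk1: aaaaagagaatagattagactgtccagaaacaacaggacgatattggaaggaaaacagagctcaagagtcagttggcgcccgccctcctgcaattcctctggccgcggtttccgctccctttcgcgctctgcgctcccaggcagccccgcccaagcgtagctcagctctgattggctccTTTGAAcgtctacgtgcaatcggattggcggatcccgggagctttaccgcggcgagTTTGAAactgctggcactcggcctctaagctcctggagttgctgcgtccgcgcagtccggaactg

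E2F sites are known in promoters of replication genes, and the CHR with CCAAT boxes in those of mitotic genes. The letters searched on both strands were TTGGCGC or TTCCCGC or TTGGCGG for E2F, TTTGAA for the CHR, CCAAT for the CCAAT box and CACGTG for the E-box that Myc binds. A window was found for 32 of the 41 genes, and for the 4 genes with several windows the first in the table was used. E2F letters were present in 8 of 15 S phase windows (53.3%), 2 of 11 mitosis windows (18.2%), 2 of 6 G1 windows (33.3%) and 9.2% of the windows of all 27025 genes. CHR letters were present in 3 of 15 S phase windows, 8 of 11 mitosis windows (72.7%), 0 of 6 G1 windows and 18.1% of all windows. CCAAT letters were in 11 S phase windows, 9 mitosis windows, 2 G1 windows and 37.9% of all windows, and E-box letters in 1, 0, 1 and 7.2% in the same order. E2F letters overlapped CCAAT letters in 3 of the 12 member windows that held them.

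The windows of Mcm5 and Mcm7 hold E2F letters, beside differences of -0.54 and 0.30, and the Pcna window holds none of the E2F letters searched. Those of Ccnb2 and Cdk1 hold CHR letters, beside differences of -0.22 and 0.17, and that of Cdk1 also holds E2F letters. Since these pairs were shown for their opposite signs and none of the 4 genes passed the test, no relation between letters and differences was read from them.

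In the mitosis class, 9 of 14 genes were tested, 0 rose and 0 fell, and the median difference was -0.00096 with 4 positive and 5 negative values. Cyclin A2 (Ccna2), the partner of Cdk2 and Cdk1 in S phase and G2, had signals of 102 and 73.0 with TGFb2, against 138 and 147 with PBS. Both TGFb2 arrays were below both PBS arrays, and the difference was -0.63 ± 0.21 (SE, 95% interval -1.11 to -0.15, limma adjusted p = 0.27). Cyclin B2 (Ccnb2), a partner of Cdk1 in mitosis, had 110.7 and 109 with TGFb2 against 129 and 132 with PBS, also without overlap, a smaller difference of -0.22 ± 0.17 (SE, limma adjusted p = 0.69). Cdk1, the mitotic kinase itself, had 76.5 and 72.1 with TGFb2 against 57.5 and 71.3 with PBS, the opposite sign at 0.17 ± 0.20 (SE, limma adjusted p = 0.79), which was 0.05 without PBS replicate 1.

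For the mitosis genes Plk1, Mad2l1 and Mki67, the arrays of at least 1 group lay far apart. Polo-like kinase 1 (Plk1), which drives mitotic entry, had 66.6 and 38.5 with TGFb2 against 54.6 and 77.8 with PBS in one probe set (-0.28 ± 0.28, SE, limma adjusted p = 0.76), and 112 and 56.8 against 81.8 and 119 in another. In both, the groups overlapped. The spindle checkpoint gene Mad2l1 had 86.1 and 125.0 with TGFb2 against 78.0 and 120.3 with PBS (0.08 ± 0.26, limma adjusted p = 0.94), with replicate 2 above replicate 1 in each group. Mki67, which encodes the proliferation antigen Ki-67, had 58.9 and 14.9 with TGFb2 against 39.8 and 30.4 with PBS in its tested probe set, so the TGFb2 arrays were the highest and the lowest of the 4.

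Cdc20, an activator of the anaphase-promoting complex, had 89.7 and 74.1 with TGFb2 against 81.9 and 81.4 with PBS. Birc5 (survivin), a subunit of the chromosomal passenger complex, had 18.7 and 32.4 against 28.7 and 21.3, and was the tested member closest above the level filter. The phosphatase gene Cdc25c, an activator of Cdk1, had 36.4 and 29.9 against 30.7 and 33.7. All 3 genes overlapped between groups.

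In the mitosis class 5 of 14 genes were dim, a share close to that of the array, 2612 of 8251 single-symbol genes. The shares were smaller in S phase, 2 of 16, and in G1, 2 of 11. Topoisomerase II alpha (Top2a), which untangles chromosomes, had 4.4 and 3.3 with TGFb2 against 8.3 and 13.3 with PBS. The kinase genes Aurka and Aurkb had 15.9 and 18.8 against 22.3 and 20.1, and 13.8 and 15.4 against 15.5 and 16.0. The spindle motor Kif11 had 13.3 and 9.1 with TGFb2 against 3.4 and 2.4 with PBS, and the 3 probe sets of the checkpoint kinase Bub1 ranged from 2.4 to 18.2 with TGFb2 against 0.5 to 19.9 with PBS. The 10 dim probe sets of the class had signals of 0.5 to 22.3, the 6 of S phase 0.8 to 46.3 and the 5 of G1 1.1 to 33.2, with second probe sets of tested genes included. No direction was read from probe sets below the filter. The closest below it was the second probe set of Mcm5, at a 4-array level of 22.7, beside 24.9 for Birc5.

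**Figure D2:**
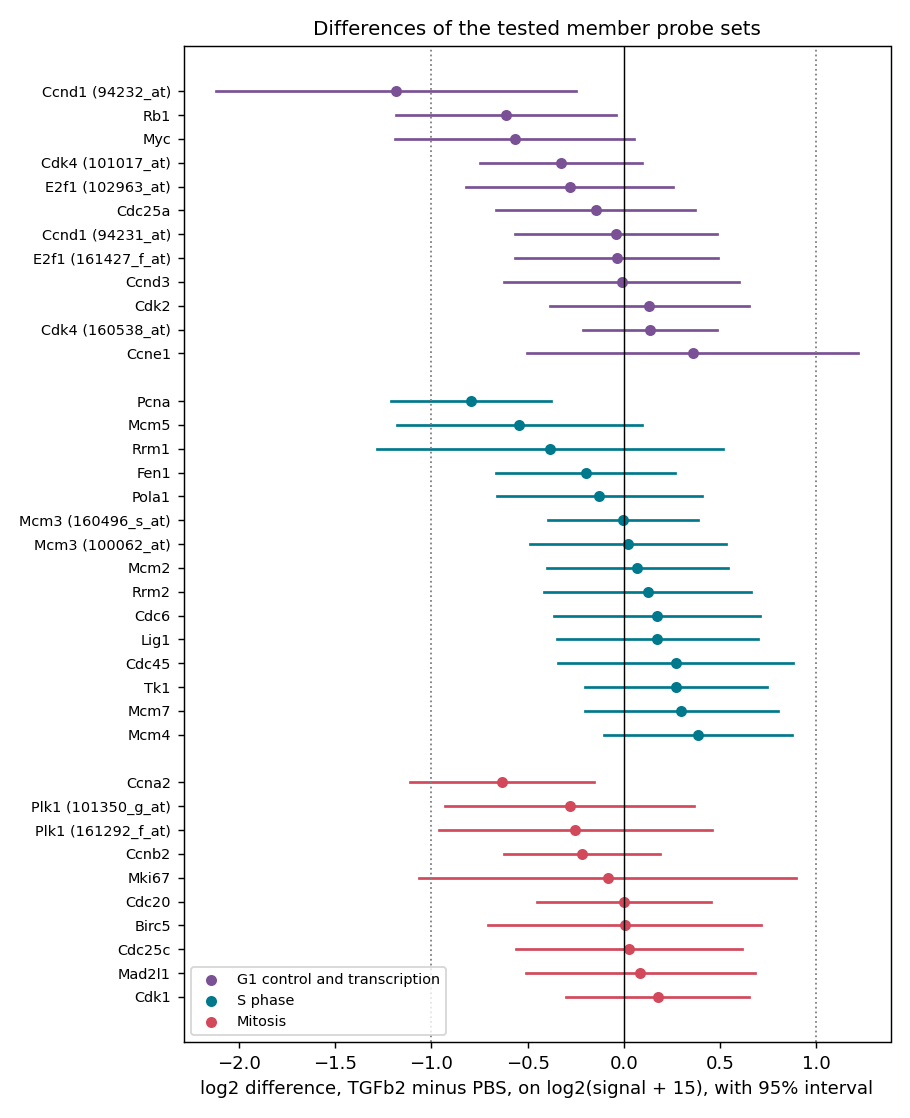
Log2 difference (TGFb2 minus PBS) of each tested member probe set with its 95% interval from limma, by class, with dotted lines at 1 log2 unit on either side of 0. Pcna, Ccna2, Rb1 and 1 probe set of Ccnd1 have intervals below 0, and 28 of the 37 intervals stay between the dotted lines.

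Set side by side, the S phase and mitosis classes differed by 0.10 between their medians, 0.10 for S phase and -0.00096 for mitosis beside -0.00082 over all tested probe sets. This difference was described and not tested. With the level filter at the 60th percentile it was 0.29, and the medians were 0.13 for G1, 0.07 for S phase and -0.22 for mitosis. On single arrays, the mean deviation of S phase genes from their own 4-array means was -0.05 and 0.03 with TGFb2, against -0.02 and 0.04 with PBS. For mitosis genes it was 0.07 and -0.17 with TGFb2, against -0.0010 and 0.10 with PBS, so the gap between the TGFb2 arrays (0.23) was larger than the gap between the groups (-0.10). For G1 genes it was 0.01 and -0.10 with TGFb2, against 0.05 and 0.04 with PBS, without overlap but with a mean difference of -0.09 beside a gap of 0.10 between the TGFb2 arrays.

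**Figure D3:**
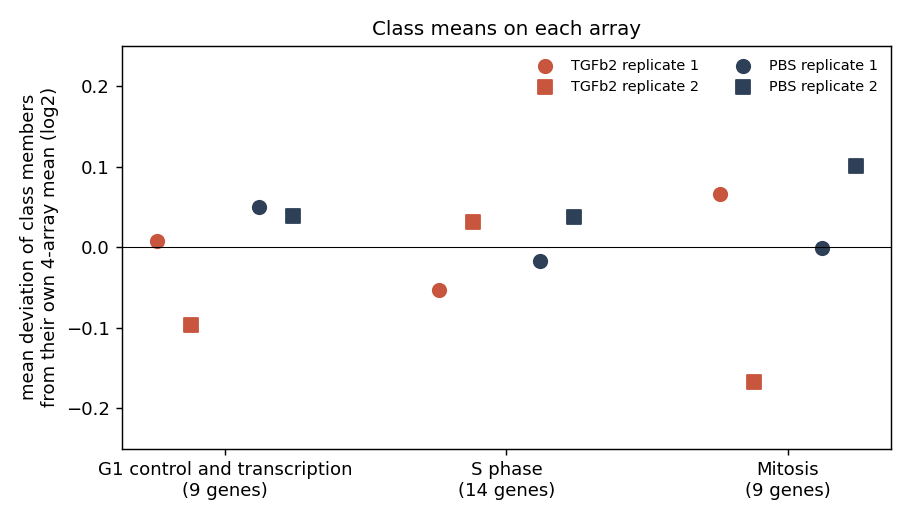
Mean deviation (log2) of the tested genes of each class from their own mean over the 4 arrays, with TGFb2 arrays in red to the left of PBS arrays in blue. For mitosis genes the TGFb2 arrays, at 0.07 and -0.17, lie on both sides of the PBS arrays' lower value, and in S phase the groups overlap.

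**Figure D4:**
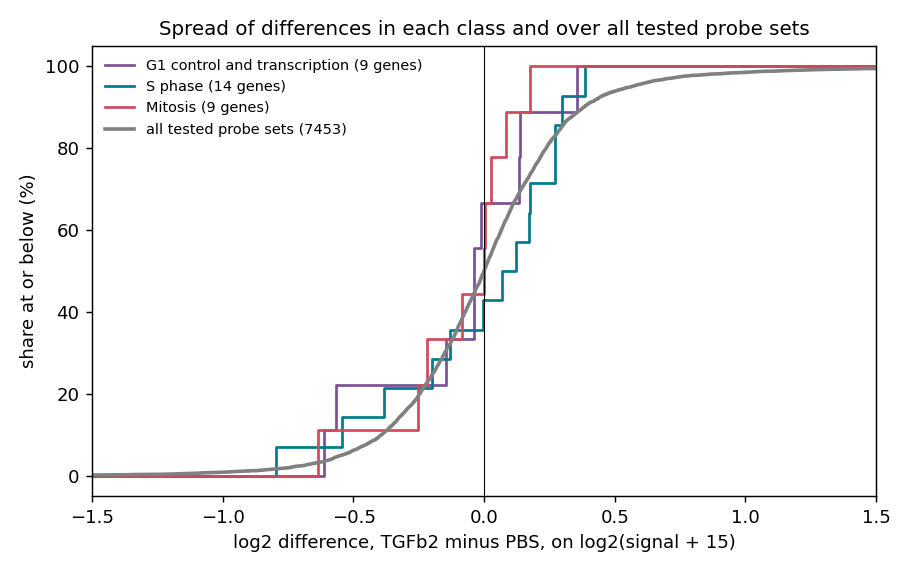
Share of genes (1 probe set each, by class) and of all 7453 tested probe sets (grey) at or below each log2 difference of TGFb2 minus PBS. The class medians are -0.04 for G1, 0.10 for S phase and -0.00096 for mitosis, beside -0.00082 for all tested probe sets.

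Other genes of the same processes, taken from lists and counted by 1 probe set per gene, were described beside all tested probe sets, of which 1.18% passed and 42.8% did not overlap. Of 28 tested genes of replication and chromatin assembly, 0 passed and 15 did not overlap (5 higher and 10 lower, 53.6%), with a median difference of -0.05. The extremes were the mismatch repair gene Msh6 (23.8 and 14.6 with TGFb2 against 33.3 and 31.4 with PBS, -0.48, limma adjusted p = 0.59) and the histone chaperone subunit Chaf1a (58.3 and 64.9 against 37.8 and 45.8, 0.43, limma adjusted p = 0.51). Of 21 tested genes of mitosis, 0 passed and 9 did not overlap (2 higher and 7 lower, 42.9%), with a median of 0.02, between the spindle gene Nusap1 (12.1 and 29.6 against 35.7 and 44.8, -0.66, limma adjusted p = 0.49) and Cdc23 of the anaphase-promoting complex (69.6 and 56.1 against 37.5 and 35.3, 0.59, limma adjusted p = 0.37). In limma, 1 was higher and 2 lower at an unadjusted p under 0.05, beside 5.77% and 5.86% of all tested probe sets. The smallest p was that of Stmn1 (172.9 and 197.9 against 276.5 and 296.5, -0.59, limma adjusted p = 0.21). Of 16 tested partners of E2F, Rb1 and Myc and other regulators, 0 passed and 10 did not overlap (1 higher and 9 lower, 62.5%), with a median of -0.26 against -0.00082 over all tested probe sets, between the cyclin Ccng1 (84.1 and 112.8 against 129.6 and 163, -0.51, limma adjusted p = 0.41) and Mycl (44.9 and 25.1 against 41.4 and 9.0, 0.41, limma adjusted p = 0.77).

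Among the inhibitors of cyclin-dependent kinases, 1 of 4 tested genes fell and 0 rose, beside 0.362% and 0.818% of all tested probe sets. The groups did not overlap for 3 of the 4 (2 higher and 1 lower, 75.0%), against 42.8% of all tested probe sets. Cdkn1c (p57), which restrains G1 kinases, had 129 and 187 with TGFb2 against 1252 and 1243 with PBS, a difference of -2.89 ± 0.20 (SE, limma adjusted p = 0.0018). The other 3, Cdkn1a (p21), Cdkn2c and Cdkn2d, had positive differences that did not pass, the largest 0.30 for Cdkn2c (133 and 109 with TGFb2 against 98.7 and 91.3 with PBS, limma adjusted p = 0.61). The remaining 3 of the 7, Cdkn1b, Cdkn2a and Cdkn2b, were dim. Cdkn2b had 25.5 and 8.6 with TGFb2 against 1.8 and 2.2 with PBS, and Cdkn2a had 45.1 and 10.4 against 25.7 and 6.7. The probe sets of Cdkn1b ranged from 5.3 to 7.8 with TGFb2 against 3.0 to 6.8 with PBS. No direction was read from these dim inhibitors.

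Of 10 macrophage genes tested, 0 passed, with a median difference of 0.38, beside 1.18% and -0.00082 over all tested probe sets. At an unadjusted p under 0.05 in limma there were 5, all higher with TGFb2, beside 5.77% higher and 5.86% lower of all tested probe sets. The groups did not overlap for 8 (6 higher and 2 lower, 80.0%), beside 42.8% of all tested probe sets. The difference was largest for the Fc receptor gene Fcgr1 (480 and 316 with TGFb2 against 178 and 161.5 with PBS, 1.13, limma adjusted p = 0.066) and lowest for the mannose receptor gene Mrc1 (75.2 and 64.5 against 129.9 and 79.4, -0.47, limma adjusted p = 0.53). Summed signals over the list were 18491 and 18820.2 with TGFb2 against 16394.5 and 17118 with PBS.

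Markers of other cells that such an exudate can hold were read beside these values. Of 6 B cell, 1 T cell, 2 mast cell or eosinophil and 3 neutrophil genes tested, 0, 0, 0 and 1 passed, beside 1.18% of all tested probe sets. Of the 4 natural killer cell genes, 0 reached the filter. The neutrophil and monocyte gene S100a8 rose (551 and 679 with TGFb2 against 129 and 211 with PBS, limma adjusted p = 0.024), while 5 of the 8 neutrophil genes on the array, Ly6g, Mpo, Ltf, Cxcr2 and S100a9, were dim. Summed signals over the neutrophil list were 772 and 844 with TGFb2 against 321.5 and 358.5 with PBS, and most of that difference came from S100a8. The other tested neutrophil genes did not pass. Elane had 33.1 and 38.4 with TGFb2 against 32.9 and 34.6 with PBS, and Camp had 94.3 and 82.4 against 74.8 and 63.4. Those over the mast cell and eosinophil list were 363 and 293.5 with TGFb2 against 223 and 185 with PBS. Of 9 tested fibroblast and mesothelium genes, counted by 1 probe set each, Col1a1 and Fbln2 rose and Dcn fell (limma adjusted p = 0.022, 0.040 and 0.026). Of all tested probe sets, 0.818% rose and 0.362% fell. The counted probe set of Col1a2 did not pass (0.16, limma adjusted p = 0.78). Another of Col1a2 did, at 415.6 and 389.3 with TGFb2 against 121.0 and 82.4 with PBS (limma adjusted p = 0.017). So did another of Col1a1, at 495.1 and 414.9 with TGFb2 against 58.0 and 54.0 with PBS (2.72, limma adjusted p = 0.0018). The further tested probe sets of Col3a1 and Pdgfra did not pass. Summed signals over the 19 probe sets of that list were 3107 and 2653 with TGFb2 against 2755 and 1935 with PBS. The part of these other cells in the cell cycle values was not tested.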

How the data were processed

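Biotin-labelled cRNA was hybridised to Affymetrix arrays. The deposited values are MAS5 signal intensities per probe set on a linear scale, per the submitters' processing notes. No version is stated there. The mean after a 2% trim was 150.1 on each array, and no scaling was added. Detection calls were not used here, and precision is limited by the number of arrays.

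The 66 control probe sets were left out. Of the rest, 10833 had 1 gene symbol, 396 several and 1193 none, and no member symbol changed in the GRCm38.p6 table. Identifiers ending in _f_at, _s_at, _r_at, _g_at or _i_at mark sets whose probes may also match related genes or are fewer.

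Signals were taken to log2(signal + 15) and the 7453 probe sets with a mean on that scale at or above the 40th percentile entered a linear model of TGFb2 against PBS (limma 3.58.1, R 4.3.3, eBayes with trend). Tests were two-sided, Benjamini-Hochberg adjusted over all of these probe sets at 0.05. Residual degrees of freedom were 2 and prior ones 5.6. The model was tested on simulated data (20 runs with 200 changed probe sets, of whose calls 4.57% were false). Where a gene had several tested probe sets, that of highest mean log2 value was counted. No 2 arrays shared more than 96 identical values.

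The members and lists were chosen with earlier results of these data known. Full statistics went to the 2 largest differences in each direction and the probe set with the highest mean in each class, and to genes whose probe sets differ in sign or by over 0.5. Same-numbered arrays are not stated to share a culture, and their deviations correlated at 0.15. Alternatives covered the pseudocount, quantile normalization, the filter, the variance trend, the replicate block, using all probe sets of a gene and omitting each array in turn. Promoter sequences are from RefSeq (GRCm38.p6).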

Additional observations from a re-analysis of the deposited data

How the results depend on the processing

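No member passed under 10 of 11 alternative settings. The exception was the replicate number as a block, where Pcna passed (adjusted p = 0.0041 in limma, in a range of 0.0041 to 0.41 over all settings) and the member count was 1. Whether the numbers pair the arrays is not stated, and with only 2 pairs their correlation does not settle it. The count over all probe sets was 320 with the replicate block, 58 with a pseudocount of 1, 16 without the intensity trend, 6 without the level filter, and 11 to 42 leaving out 1 array, lowest without TGFb2 replicate 1 and highest without PBS replicate 1. The causes were not tested. Leaving out an array leaves a lone array that is assumed to vary like the other group.

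The class medians lie near 0, and those of G1 and mitosis changed sign under some settings. That of G1 was 0.13 when the filter was raised to the 60th percentile, -0.0933 if all its tested probe sets were used and -0.0681 to 0.0447 leaving out 1 array. That of S phase was 0.0321 without the filter and 0.0323 to 0.11 leaving out 1 array. That of mitosis was -0.22 with the filter at the 60th percentile, where fewer genes are left, and -0.117 to 0.115 leaving out 1 array. S phase minus mitosis was 0.29 at that filter and -0.0019 to 0.15 leaving out 1 array.

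Of the 17 probe sets with full statistics, 11 kept their sign under every setting, among them those of Pcna, Ccna2, Rb1, Mcm4, Mcm5 and Mcm7. Leaving out 1 array turned the sign of Ccne1 (-0.27 to 0.98), Mad2l1 (-0.19 to 0.36), Ccnd1 in its probe set of higher mean log2 value (-0.13 to 0.0468), Plk1 (-0.59 to 0.0220) and both probe sets of Mcm3 (-0.10 to 0.14 and -0.0215 to 0.0120), and quantile normalization gave 9.4e-05 for Mcm3. Over all 37 tested member probe sets, the sign changed for 19 under at least 1 setting.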
